A study of Drosophila melanogaster with 2 samples.

Results

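Cytochrome P450 genes were examined in Ck1alphaRNAi larvae (Dcg-Gal4 > UAS-Ck1alphaRNAi) and in control larvae (Dcg-Gal4 > w1118). Members were all gene symbols of the annotated array table that begin with Cyp and a family number, with 1 probe set for each gene, the brighter one where there were several. This gave 84 of 14178 symbols. One of them, Cyp1, is a cyclophilin, a protein-folding enzyme that shares only the letters of the name, and it gave 14417 in Ck1alphaRNAi and 13248 in control larvae. It was left out of all counts. The other 83 are P450 genes, and they are read by 82 probe sets because Cyp12d1-d and Cyp12d1-p share 1.

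P450 enzymes are heme proteins that insert an atom of oxygen into their substrate, with electrons from a partner protein. In insects most of them sit in the membrane of the endoplasmic reticulum and draw electrons from P450 reductase, and a smaller group works in mitochondria with ferredoxin. Families are grouped into clans. The CYP3 clan, with Cyp6, Cyp9 and Cyp28, and the CYP4 clan, with Cyp4 and Cyp313, are known for breaking down plant toxins, drugs and insecticides and for oxidizing fatty acids and hydrocarbons. The CYP2 and mitochondrial clans also hold the enzymes of ecdysteroid synthesis, the steroid hormones that time the molts. In larvae, detoxifying P450s are made mainly in midgut, Malpighian tubules and fat body.

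Both groups were feeding mid-third instar whole larvae, labelled female and grown for 6 days, 20 larvae to a pool and 1 array of the Affymetrix Drosophila 2 type to a group. Dcg-Gal4 is carried by both and acts in fat body and blood cells, and UAS-Ck1alphaRNAi, the hairpin against Casein kinase Iα, is carried only by the Ck1alphaRNAi larvae. The methods state that Ck1alphaRNAi cultures were begun 1 day before the controls. Values are the deposited MAS5 signals, the linear brightness that the software computes for each probe set. With 1 array for each genotype there is no replicate check, no test was possible, and the number of arrays limits the precision.

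The silenced gene, CkIalpha in the table, gave 2055 in Ck1alphaRNAi larvae and 2665 in controls, a ratio of 0.771. The only measure of error was how far different probe sets for one gene disagreed, whose log2 ratios had an SD of 0.41, or 1.33-fold, over 413 genes. This SD comes from 1 pair of arrays and does not hold differences between larval pools or arrays. The log2 ratio of CkIalpha, -0.37, was smaller in size than this SD, so these arrays do not establish the knockdown. A gene is called detected here where its signal was at least 100 on at least 1 array. The brightest of 17 tag control probe sets, which match no fly sequence, reached 53.3 with Ck1alphaRNAi RNA and 33.1 with control RNA. Where the dimmer signal of a gene was below that level, its fold is a bound against it. Where both were, or where the bound came out below 1, no fold is given. All listed markers with a probe set of their own for fat body (7), midgut (7), Malpighian tubule (5) and salivary gland (6) were detected on at least 1 of these arrays of whole larvae. Among them, the fat body genes Fbp1, Fbp2 and Lsp1alpha reached 100 only in controls, with 88.1, 60.8 and 61.2 in Ck1alphaRNAi larvae.

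Of the 82 P450 probe sets, 63 (76.8%) were detected, against 71.9% of all probe sets chosen for a gene. Among these 63, 5 had a signal at least 2-fold higher in Ck1alphaRNAi larvae, and 9 were lower by 2-fold or more. That is 7.94% higher and 14.3% lower, beside 2.83% and 7.03% of all 9307 detected genes. The P450 median lay at a log2 ratio of 0.00, with quartiles of -0.40 and 0.27, and that of all detected genes at -0.02, with quartiles of -0.31 and 0.21. The family as a whole was thus centered where the array was. Its 14 genes past 2-fold went both ways, and 49 stayed within 2-fold. The background depends on the scaling: with each array centered on its median, 4.87% of all genes were 2-fold higher and 4.14% lower, and higher genes made up 54.1% of those past 2-fold, against 28.7% as deposited. Among P450 genes the counts were then 6 higher and 8 lower.

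**Figure D1:**
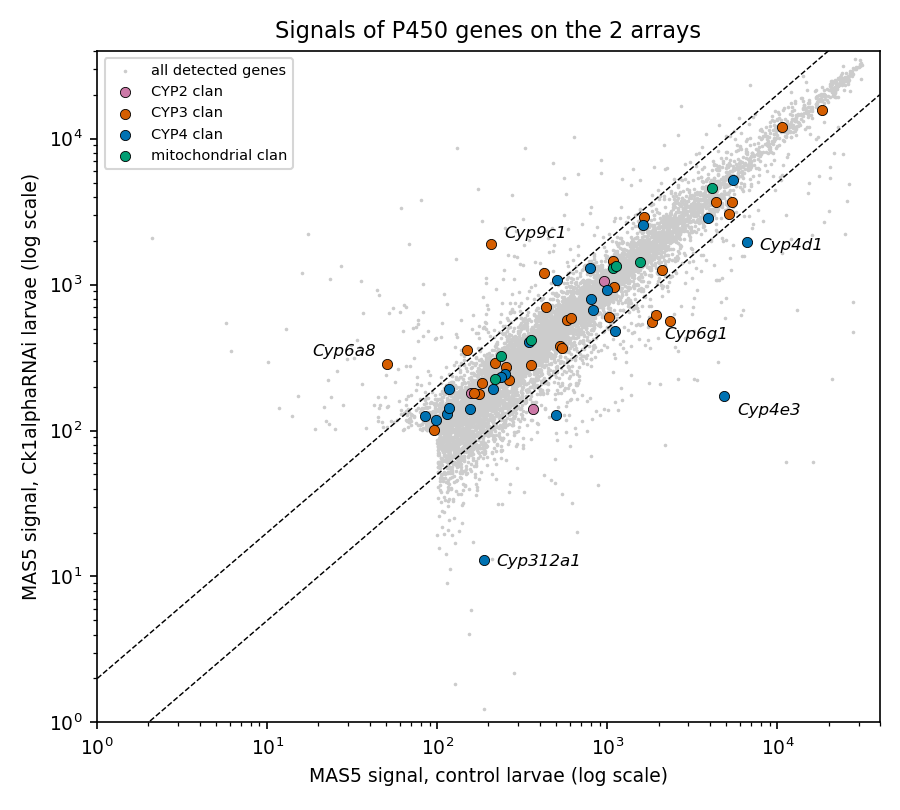
MAS5 signal of each detected gene in Ck1alphaRNAi larvae (vertical) and in control larvae (horizontal), both on log scales, with 63 P450 probe sets colored by clan over all 9307 detected genes in gray and dashed lines at 2-fold. Cyp9c1 and Cyp6a8 lie far above the lines, Cyp4e3 and Cyp312a1 far below, and most P450 genes between them.

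Cyp9c1 had the highest ratio of the family. Its signal was 1903 in Ck1alphaRNAi larvae and 208 in control larvae, 9.14-fold higher (log2 ratio 3.19), which was place 42 from the top among all detected genes. Cyp6a8, an enzyme annotated in the table for lauric acid and insecticide metabolism and for the response to caffeine, was 5.61-fold higher, with 285 in Ck1alphaRNAi larvae against 50.8 in controls. Both arrays of Cyp9c1 were well clear of the tag controls, whereas the control signal of Cyp6a8 was only a little above its level of 33.1. Cyp6a9, which carries an insecticide annotation as well, was 2.84-fold higher, at 1198 in Ck1alphaRNAi larvae and 421 in controls. Cyp309a1, annotated for lateral inhibition from a mutant phenotype, gave 359 against 150 in controls, and Cyp4p1 gave 1079 against 507, 2.40-fold and 2.13-fold higher. Only Cyp9c1 and Cyp6a8 were more than 4-fold higher, and the other 3 lay between 2-fold and 3-fold.

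In the other direction, Cyp4e3 stood out. Its signal was 173 in Ck1alphaRNAi larvae and 4877 in control larvae, 28.3-fold lower (log2 ratio -4.82), and only 10 detected genes had a lower ratio. Cyp312a1 gave 13.0 in Ck1alphaRNAi larvae, below the tag controls, and 189 in controls, at least 3.54-fold lower. Cyp6a14 was 4.18-fold lower, with 560 in Ck1alphaRNAi larvae and 2342 in controls. These had the 3 lowest deposited ratios among the detected P450 genes, but for Cyp312a1 the bound falls short of 4-fold.

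A second set of genes was between 2-fold and 4-fold lower. Cyp4s3 gave 128 in Ck1alphaRNAi larvae and 500 in controls, 3.89-fold lower, and Cyp4d1 gave 1962 and 6640, 3.38-fold lower. Cyp6g1, the P450 through which fly strains resist DDT and neonicotinoids, gave 555 in Ck1alphaRNAi larvae and 1826 in controls, 3.29-fold lower. Cyp304a1, a CYP2 clan gene annotated for insecticide metabolism, was 2.60-fold lower (140 against 364 in controls). Cyp4ac1, annotated for hormone metabolism and insecticide breakdown, was 2.30-fold lower (484 against 1117). Of these, Cyp4ac1 was the one that dropped inside 2-fold when the arrays were centered on their medians.

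The remaining entry, Cyp6v1, rests on an ambiguous probe set. The brighter probe set that carries its name is shared with the zinc finger gene shn, and its public identifier is that of a transposon; it gave 617 in Ck1alphaRNAi larvae and 1922 in controls, 3.11-fold lower. The other probe set carries the name of Cyp6v1 alone and gave 189 in Ck1alphaRNAi larvae and 144 in controls, in the opposite direction. With the gene's own probe set, 5 P450 genes were at least 2-fold higher and 8 lower. The counts of 9 lower P450 genes, of 3 in Cyp6 and of 3 in the CYP3 clan include the shared probe set.

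**Figure D2:**
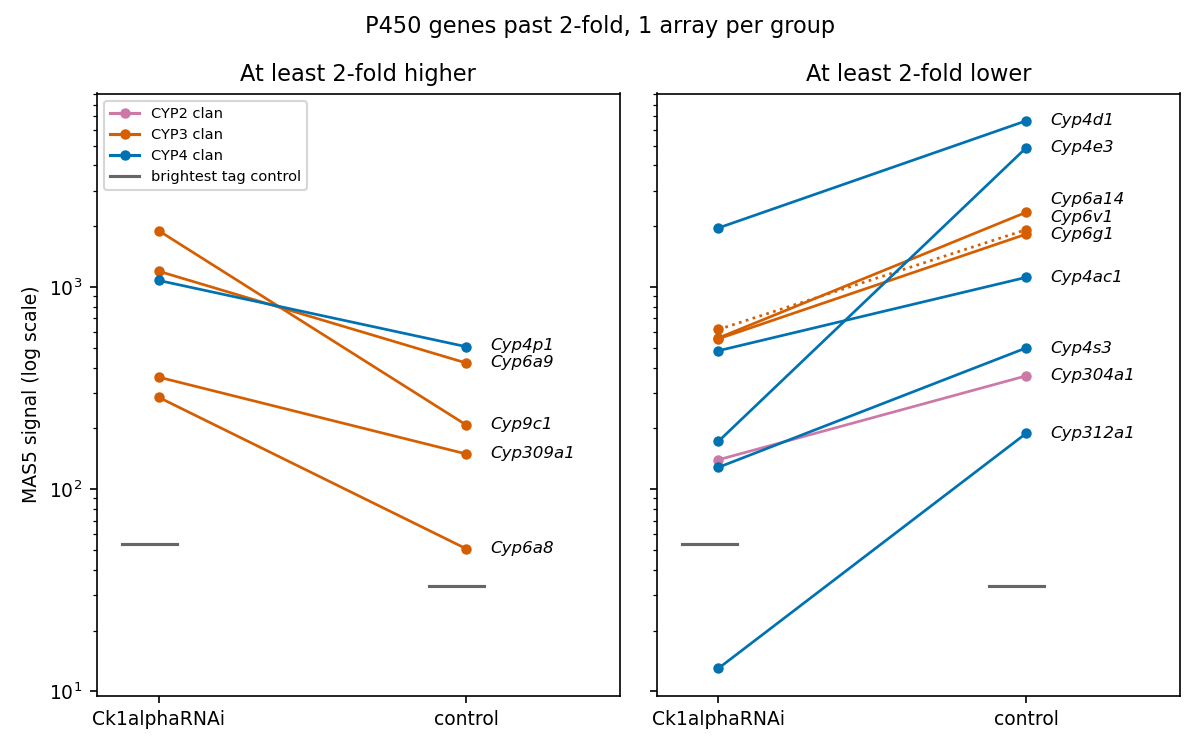
MAS5 signal on a log scale for the 14 P450 genes past 2-fold, each joined from its Ck1alphaRNAi value (left) to its control value (right) and colored by clan, with short gray bars at the brightest tag control of each array. The dotted line is the probe set that Cyp6v1 shares with shn, and the Ck1alphaRNAi value of Cyp312a1 is the only one under its gray bar.

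By clan, the 5 higher genes were 4 of 30 detected CYP3 clan genes and 1 of 23 detected CYP4 clan genes. The 9 lower genes were 3 of the CYP3 clan, 5 of the CYP4 clan and 1 of 3 detected CYP2 clan genes. This was 13.3% higher and 10% lower in the CYP3 clan, and 4.35% and 21.7% in the CYP4 clan. Among all detected genes the shares were 2.83% and 7.03%. The 3 lower CYP3 clan genes include Cyp6v1, read from the probe set that it shares with shn. The 7 detected probe sets of the mitochondrial clan lay within 2-fold, with log2 ratios between -0.12 and 0.45. With 9.85% of all detected genes past 2-fold in either direction, a count of 0 among 7 is near the background. Of the 63 detected P450 probe sets, 56 are annotated to the endoplasmic reticulum membrane, and all 14 changed genes were among them. Of these 56, 8.93% were higher and 16.1% lower. With most detected P450 genes annotated so, this does not set the changed ones apart. Whether the clans differ could not be tested with 1 array a group.

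The Cyp4 family, which includes fatty acid and hydrocarbon oxidases, had 17 detected genes, 1 higher and 4 lower, with a median log2 ratio of -0.01. The family thus had 5.88% of its detected genes higher and 23.5% lower, beside 2.83% and 7.03% of all detected genes. Its members spread widely, as the closely related Cyp4e genes show. Cyp4e2 gave 2856 in Ck1alphaRNAi larvae and 3890 in controls, 1.36-fold lower, and Cyp4e1, short of detection, gave 92.9 against 71.1. Neither came near the 28.3-fold decrease of Cyp4e3. The Cyp4d genes differed in the same manner. Next to the lower Cyp4d1, Cyp4d2 had a ratio of 0.816, Cyp4d8 of 0.923 and Cyp4d14 of 0.992. The 3 Cyp4p genes went one way, with Cyp4p2 1.65-fold and Cyp4p3 1.64-fold higher beside Cyp4p1, although only Cyp4p1 reached 2-fold. Cyp4g1, the oenocyte enzyme that makes the hydrocarbons of the cuticle, gave 5187 in Ck1alphaRNAi larvae and 5472 in controls, and Cyp4g15, a gene of the brain, 119 against 97.9. Cyp4ad1 was 1.58-fold higher.

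The Cyp6 family, to which most known insecticide-resistance P450s belong, had 18 detected genes, 2 higher and 3 lower, with a median log2 ratio of -0.11. In percent, 11.1% were higher and 16.7% lower, beside 2.83% and 7.03% of all detected genes. Several well-studied members lay within 2-fold. Cyp6a2, which metabolizes insecticides and is induced by barbiturates, gave 213 in Ck1alphaRNAi larvae and 182 in controls. Cyp6d5 gave 3060 and 5192, 1.70-fold lower, and Cyp6w1, linked to DDT, gave 1263 and 2092, 1.66-fold lower. Cyp6a23 gave 15755 in Ck1alphaRNAi larvae and 18266 in controls, a difference smaller than the probe set error. Cyp6d2 was 1.61-fold higher and Cyp6a13 1.72-fold lower. Cyp6a20, known for its part in aggression of adult males, had a ratio of 1.33, and Cyp6g2, a close relative of Cyp6g1, of 1.05.

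All 6 genes of the Cyp9 family were detected, and Cyp9c1 was the only one past 2-fold. Cyp9b2 gave 12041 in Ck1alphaRNAi larvae and 10694 in controls, Cyp9f2 gave 3696 and 5444, and Cyp9b1 gave 366 and 544. Cyp9h1 and Cyp9f3Psi, which the current reference lists as the coding gene Cyp9f3, had ratios of 1.11 and 1.07. The increase of Cyp9c1 was therefore not shared by its family.

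Of 4 Cyp28 genes, 3 were detected and none was past 2-fold. Cyp28d2, one of a neighboring pair known for nicotine metabolism, came closest, 1.77-fold higher with 2912 in Ck1alphaRNAi larvae against 1646 in controls, and passed 2-fold when the arrays were centered on their medians. Its partner Cyp28d1 gave 576 on both arrays. Cyp28a5 had a ratio of 0.851. In Cyp313, 4 of 6 genes were detected, all within 2-fold, with ratios from 0.895 for Cyp313b1 to 1.49 for Cyp313a2.

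The mitochondrial Cyp12 family was the most even of those with at least 4 detected genes. The log2 ratios of its 6 detected probe sets ran between -0.12 and 0.26, and their median was 0.19. Cyp12a4, whose overexpression gives resistance to the growth inhibitor lufenuron, gave 4583 in Ck1alphaRNAi larvae and 4102 in controls. Cyp12e1, with 1434 against 1560, was the only one with the lower signal in Ck1alphaRNAi larvae. The probe set shared by Cyp12d1-d and Cyp12d1-p, a duplicated pair linked to DDT resistance, gave 415 and 357 and does not separate the 2 genes. A second probe set, listed for Cyp12d1-d alone, was dim and gave 40.1 against 46.6, a log2 ratio of -0.22 beside 0.22 for the shared one. All these differences were smaller than 1 SD of the probe set error. Cyp49a1, also of the mitochondrial clan, was 1.37-fold higher.

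**Figure D3:**
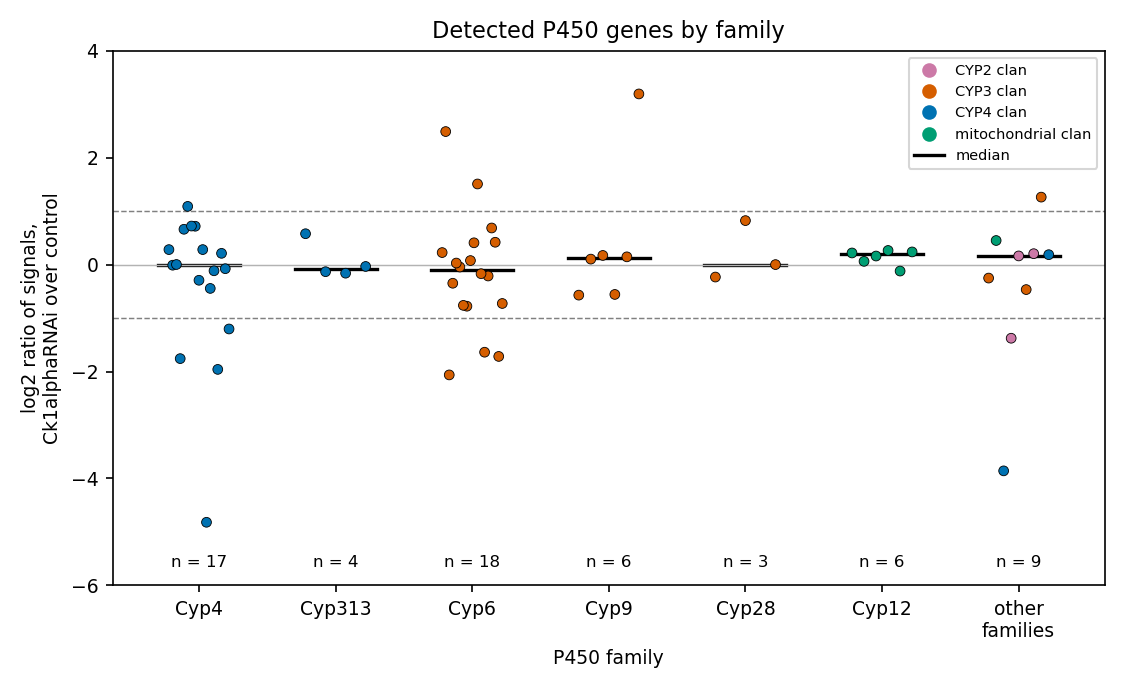
Log2 ratio of Ck1alphaRNAi over control signals for the 63 detected P450 probe sets, 1 point each, by family and colored by clan, with the family median as a black line and dashed lines at 2-fold. The 6 Cyp12 points lie together near 0, whereas Cyp4 runs between -4.82 and 1.09 and Cyp6 between -2.06 and 2.49.

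Among the smaller families, Cyp18a1, the enzyme that inactivates ecdysteroids, gave 1065 against 952 in controls, and its second probe set gave 447 and 414. Cyp310a1, a negative regulator of Wnt signaling in the wing disc, had a ratio of 0.723. Cyp305a1, Cyp317a1 and Cyp318a1 had ratios between 0.840 and 1.15. None of these was past 2-fold.

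P450 genes often lie side by side as products of tandem duplication. In the gene order of the reference (Release 6 plus ISO1 MT), 42 of the 82 probe sets belonged to 15 runs of at least 2 neighboring P450 genes. A gene past 2-fold occurred in 6 of these runs, only 1 of which held more than 1 such gene. No run held genes past 2-fold in both directions. Of 33 detected probe sets with a P450 neighbor, 4 were higher and 3 lower by 2-fold or more, beside 1 and 6 of 30 others. Among all detected genes, 2.83% were higher and 7.03% lower. The 6 lower ones include the probe set that Cyp6v1 shares with shn. Whether genes with and without a P450 neighbor differ was not tested. In several runs the ratios of neighbors differed in size. The longest run has 9 genes, of which 6 were detected. Cyp6a9 and Cyp6a8 were more than 2-fold higher, while Cyp6a20 and Cyp6a21, between them, had ratios of 1.33 and 1.34, and Cyp6a23 one of 0.863. In the run of Cyp6g1, Cyp6g2 and Cyp6t3, only Cyp6g1 was past 2-fold. Cyp4ac3 gave 800 in Ck1alphaRNAi larvae and 799 in controls, in the same run as the lower Cyp4ac1. Cyp6a14 and Cyp6a13 were both lower, at ratios of 0.239 and 0.583. Cyp309a2, the neighbor of Cyp309a1, was short of detection at 96.3 in Ck1alphaRNAi larvae and 28.9 in controls, at least 2.91-fold higher. Cyp4e3, Cyp9c1, Cyp4s3, Cyp4d1 and Cyp312a1 had no P450 gene as a neighbor. How far the probes of such related genes bind each other's transcripts was not tested.

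**Figure D4:**
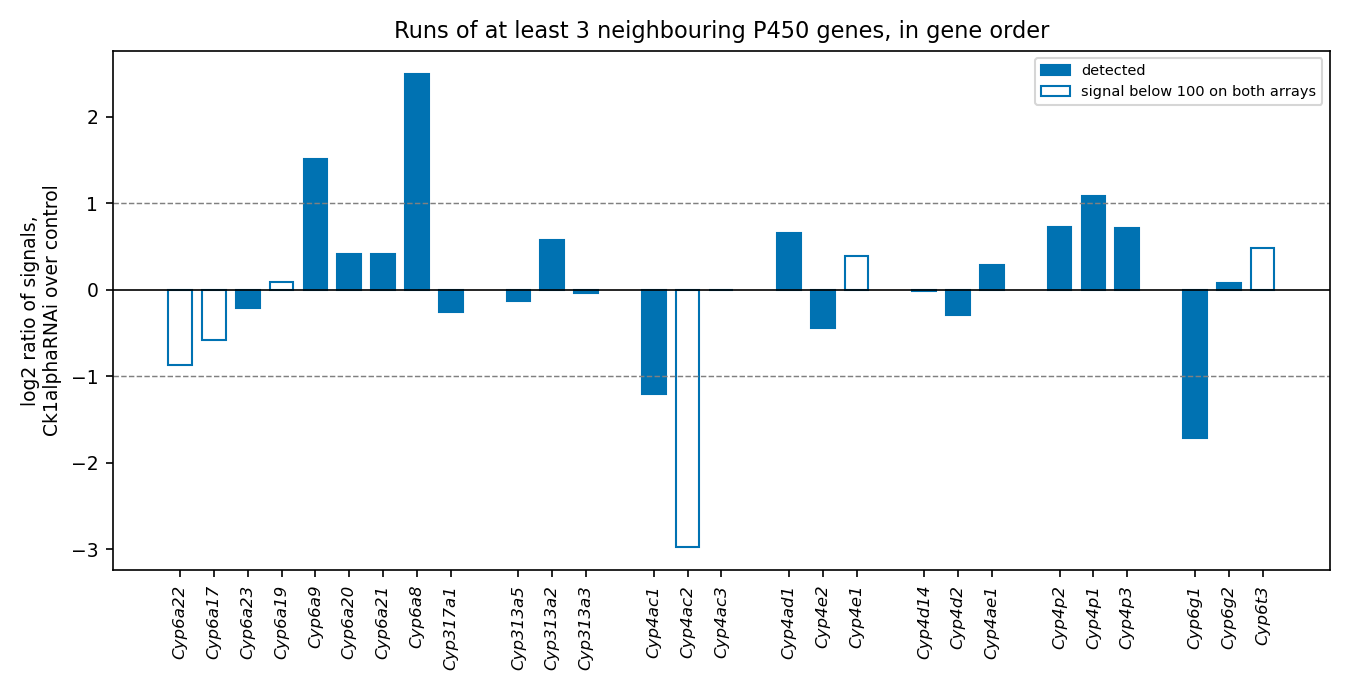
Log2 ratio of Ck1alphaRNAi over control signals for the 7 runs of at least 3 neighboring P450 genes, in gene order, with gaps between runs, filled bars for detected genes and open bars for genes with a signal below 100 on both arrays. In the run of 9 genes only Cyp6a9 and Cyp6a8 pass the upper dashed line at 2-fold, and the open bar of Cyp4ac2 stands for signals below the tag controls on both arrays, for which no fold is given.

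The table annotates 14 P450 genes, read by 13 probe sets, for insecticide or DDT response or metabolism. Of 9 detected, Cyp6a8 and Cyp6a9 were past 2-fold on the higher side, Cyp6g1, Cyp304a1 and Cyp4ac1 on the lower side, and 4 lay within 2-fold. That is 22.2% higher and 33.3% lower, of only 9 genes, beside 2.83% and 7.03% of all detected genes. A list of 11 P450 genes of insecticide or toxin metabolism from the literature overlaps with these. Its 10 detected genes, with the Cyp12d1 pair counted once, had a median log2 ratio of 0.12. Cyp6a8 and Cyp6g1 were its only genes past 2-fold, beside 9.85% of all detected genes. Detoxifying P450s thus did not move in 1 direction.

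The detected partners and regulators of P450 enzymes lay within 2-fold. Cpr, the P450 reductase, gave 3263 in Ck1alphaRNAi larvae and 3617 in controls, and Cyt-b5, a further electron donor in the same membrane, 7249 against 5903. Of 4 listed mitochondrial donors, 2 had a probe set under the listed symbol. These, dare, an adrenodoxin reductase, and the ferredoxin gene Fdxh, had ratios of 1.13 and 1.10. Of 6 listed regulators of detoxification genes 5 were detected. Hr96, a nuclear receptor that responds to xenobiotics, was 1.68-fold higher, at 958 in Ck1alphaRNAi larvae and 570 in controls, whereas the stress factor gene cnc gave 4924 against 6950, and its inhibitor gene Keap1 had a ratio of 1.18. The transcription factor gene maf-S, the partner of cnc, had a ratio of 1.15, and tgo one of 0.697.

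The listed P450 genes of ecdysteroid synthesis other than Cyp6t3 carry other symbols and are no members of the family as named in the table. Of these, spok, which acts early in the pathway in the prothoracic gland, gave 138 in Ck1alphaRNAi larvae and 286 in controls, 2.07-fold lower. The gene shd, whose enzyme makes the active hormone in peripheral tissues, gave 950 and 1440, 1.52-fold lower, and phm had a ratio of 0.834. The signals of dib, sad and spo were below 100 on both arrays. Of 6 listed prothoracic gland markers, 3 were detected: spok and phm, given above, and sro, which gave 4.06 in Ck1alphaRNAi larvae, below the tag controls, and 153 in controls, at least 2.87-fold lower. In Ck1alphaRNAi larvae, sad, dib and nvd gave 45.6, 43.5 and 28.8, also below the brightest tag control.

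Markers of other tissues differed as well. Of 8 listed fat body genes, 7 had a probe set that carries their symbol alone. All 7 were at least 2-fold lower in Ck1alphaRNAi larvae, with log2 ratios between -8.05 and -1.43. Their signals summed to 11660 in Ck1alphaRNAi larvae, against 131908 in controls. The 6 salivary glue genes were also all lower, between -3.92 and -1.62, with a summed signal of 23222 against 108793. Of 6 listed Malpighian tubule genes, 5 had such a probe set. Among these 5, 2 were at least 2-fold higher, Uro by 4.33-fold and Drip by 2.04-fold. The sum, most of it from Uro, was 7954 against 3213 in controls. The other 3 had ratios of 1.26 (Irk3), 1.10 (Lkr) and 0.803 (ClC-a). Of 8 listed midgut genes, 7 had such a probe set. Jon44E and Mal-A1 were more than 3-fold higher, and the other 5 lay within 2-fold, with ratios from 0.930 for Jon65Aiii to 1.64 for betaTry. The median log2 ratio of the 7 was 0.35, and the sum, whose difference came mostly from Jon44E, was 141551 against 111438. For the oenocytes, 2 of 5 listed genes had a probe set of their own, CG18031 at 84.5 against 265 and CG17374 at 1054 against 1612, while Cyp4g1 had a ratio of 0.948. In Ck1alphaRNAi larvae the dimmest of these markers were Fbp2 at 60.8 and Lsp1alpha at 61.2, little above the brightest tag control of 53.3. The part of fat body, gut, tubule or stage in the P450 values was not tested, and in whole larvae fewer cells of a type and less RNA per cell cannot be told apart.

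The remaining 19 P450 genes had signals between 1.16 and 96.3. Of these, Cyp28c1, Cyp303a1, Cyp313a1, Cyp316a1, Cyp4ac2, Cyp4d21, Cyp6a17 and Cyp6t3 were below the brightest tag control on both arrays, 8 genes in all. They include Cyp303a1, known for sensory bristles, Cyp6a17, known for temperature preference, and Cyp6t3, known for ecdysteroid synthesis. The other 11 were Cyp301a1, Cyp308a1, Cyp309a2, Cyp311a1, Cyp313a4, Cyp4aa1, Cyp4d20, Cyp4e1, Cyp6a16, Cyp6a19 and Cyp6a22. Cyp301a1, a gene of the adult cuticle, gave 58.9 in Ck1alphaRNAi larvae and 80.8 in controls. For the 8 genes below the tag controls on both arrays a change was not detectable, which does not show that there was none. Among the other 11, the dimmer signal of Cyp309a2, of Cyp6a22 and of Cyp4d20 was below the tag control, so their folds are bounds. These were at least 2.91-fold higher for Cyp309a2, and at least 1.70-fold lower for Cyp6a22 and 1.61-fold lower for Cyp4d20. Cyp308a1 gave 38.5 in Ck1alphaRNAi larvae and 45.5 in controls, and Cyp4aa1 gave 48.6 and 52.7. Their dimmer signals were also below the tag control, and no fold is given.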

How the data were processed

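Whole larvae of 2 genotypes were measured on 1 array each. Per the labels, the authors used MAS5, version 5; no source used here names the annotation version or genome build. The authors deposited, for 18952 probe sets, a linear signal intensity, and also their own fold change, a ratio between the arrays, which was not used. A second deposited table holds the same intensity values apart from computer rounding. Both arrays have a mean signal of 500.02 with 2% trimmed at each end, so they were already scaled to each other, and no further scaling was applied.

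The symbols of a probe set were split, each gene kept its brightest probe set by mean signal, and genes that share a probe set were counted once. This also sets the background of 9307 detected genes. Tissue markers were taken only from probe sets with 1 symbol. The plan put detection calls first; without them, its fallback of a signal of at least 100 was used. Log2 ratios of Ck1alphaRNAi over control had no pseudocount. All 83 P450 symbols matched the reference gene table, which gave names and gene order only. Named were P450 genes past 2-fold, the brightest ones, those of role lists and the extremes of families; other genes, chosen after their values were seen, were added to describe subfamilies and runs. The members and lists were chosen with earlier results of these data known. Ratios were tested on simulated data with known folds. Alternatives were other scalings, a pseudocount, other probe set rules, detection filters and folds. Calculations used Python 3.11.15 with pandas 2.3.3 and numpy 2.4.6; loess came from statsmodels 0.14.6 and plots from matplotlib 3.10.9.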

Additional observations from a re-analysis of the deposited data

How the results depend on the processing

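With 5 P450 genes at least 2-fold higher and 9 lower as reported, the alternative scalings, pseudocount, probe set rules and detection filters gave 4 to 6 higher and 6 to 11 lower, and medians of log2 ratios between -0.04 and 0.25. The 11 lower genes came without a detection filter and were 13.4% of the P450 genes, beside 11% of all genes. At 1.5-fold, 10 genes were higher and 12 lower, and at 3-fold 2 and 7. The shares at 1.5-fold were 15.9% and 19%, beside 7.22% and 14.5% of all detected genes. At 3-fold they were 3.17% and 11.1%, beside 1.42% and 2.33%. Cyp6v1 turned round, to a log2 ratio of 0.39, when probe sets open to cross-hybridization were left out and with its own probe set, an alternative chosen after seeing the data. All 14 genes past 2-fold stayed so under quantile normalization, loess and the pseudocount of 16. Centering on the median lost Cyp4ac1, gained Cyp28d2 and moved the median of all genes by 0.25 on the log2 scale. That filter on cross-hybridization left 57 P450 genes and also removed Cyp4d1 and Cyp6a14, so that fewer lower genes follow from its construction. No array could be left out, and no paired analysis was possible because each group has 1 array. Low signals limit the 19 genes short of detection.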
